A study of Mus musculus with 9 samples.

Results

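The 9 genes described here are the EGF receptor ligands Ereg (epiregulin), Areg (amphiregulin), Hbegf (heparin-binding EGF-like growth factor), Tgfa (transforming growth factor alpha) and Nrg1 (neuregulin 1), the receptors Egfr, Erbb2 and Erbb3, and the feedback inhibitor Errfi1. They were taken by gene symbol from the 54307 genes of the deposited table, and each symbol matched 1 row. The RNA came from C2C12, a line of mouse myoblasts able to fuse into myotubes. There were 3 libraries each of the untreated control group (NC), the group given 25 mmol/L glucose (H) and the group given 25 mmol/L glucose with 200 nmol/L liraglutide (HL), all for 48 h. Liraglutide activates the receptor of the gut hormone glucagon-like peptide-1 and is long-acting through a fatty acid side chain. The glucose concentration of the NC medium is not given in the sources used here, no library with liraglutide alone or with an osmotic control such as mannitol was analysed here, and 1 cell line was used.

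The ligands of this family are made as membrane-anchored precursors and released by proteases at the cell surface. EREG, AREG, HBEGF and TGFA bind EGFR, and NRG1 binds ERBB3, which has little kinase activity of its own and signals with a partner such as ERBB2, a receptor that has no known ligand. The bound receptors drive the RAS and ERK cascade, and its target genes include Errfi1, whose product (MIG6) binds the kinase domain of EGFR and ERBB2 and turns it off. In muscle, neuregulin signalling is known for its part at the neuromuscular junction and in spindle formation, and EGFR ligands are mitogens for many adherent cells.

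Values are FPKM, fragments scaled to transcript length and to library size, so levels of different genes may be set side by side. Low values fell on whole multiples of 1 fragment, which gave a depth of 17300000 to 23200000 fragments (rounded) per library. The sum of FPKM per library was between 757000 and 765681 for NC, between 649733 and 683362 for H and between 698627 and 731929 for HL, and mitochondrially encoded transcripts took 6.48% to 7.28%, 7.24% to 9.47% and 9.19% to 11.4% of it. The H libraries differed more among themselves than the others, the median gene having an SD of 0.171 on the log2 scale, against 0.0723 in NC and 0.0865 in HL. Of 8 myoblast markers, the summed level ranged over 439 to 453 FPKM (NC), 324 to 459.7 (H) and 689 to 712 (HL), most of it from Des (desmin) at 253 ± 9.37, 191 ± 45.2 and 369 ± 4.89 FPKM (SD, n = 3 each). Of the 7 that were tested, all but the satellite cell factor Pax7, 2 were higher (Myf5 and Itga7) and 4 lower by adjusted p in H against NC, with the myogenic factor Myod1 called lower (log2 fold change -1.29, adjusted p = 0.00590), and 6 were higher in HL against H. Of all tested genes, 27.1% were higher and 33.0% lower by adjusted p in H against NC, with 5.75% called lower, and 26.7% were higher in HL against H. Of 8 epithelial markers, the summed level ranged over 2.67 to 3.03 FPKM (NC), 7.08 to 9.64 (H) and 6.23 to 8.75 (HL), most of it from the keratins Krt19 and Krt14, which alone passed the filter given below. Of 10 macrophage markers it was 5.57 to 7.05, 106 to 169 and 19.6 to 21.0 FPKM, most of it from Csf1r and Cd68, with Tyrobp at 0 in every library and Ptprc and Adgre1 below 0.06. Of 6 Schwann cell markers it was 8.81 to 9.81, 6.59 to 12.0 and 19.7 to 23.4 FPKM, most of it from Ngfr, with Foxd3 at 0 in every library. The part of these transcripts in the results below was not tested.

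Groups were compared with limma on log2(FPKM + 0.1), over the 13674 genes with at least 1 FPKM in at least 3 libraries. "Rose" and "fell" are used for a Benjamini-Hochberg adjusted p under 0.05 over all these genes, and "called" for a change that also passes an absolute log2 fold change of 1, the threshold of the study. Tgfa did not reach the filter, and Erbb3 reached it through its H and HL libraries only. The study's methods say in general that its experiments were done as independent biological repeats, while the labels do not say for these libraries whether each had its own culture. The p-values measure the spread between the libraries, and where cultures were shared that spread is technical. The fit pools the spread of all 9 libraries, so p-values of HL against NC also carry the wider spread of the H libraries. In such bulk samples, fewer cells with a transcript and less of it per cell cannot be told apart.

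Promoter sequence from RefSeq (GRCm38.p6) was searched for 5 of the 9 genes, Areg, Tgfa, Egfr, Erbb2 and Errfi1, with 6 start sites. The reference used held no promoter entry for Ereg, Nrg1 and Erbb3. Hbegf was left out of the search by choice, so the statements on motifs do not cover it. The sequences of Areg, of 1 of the 2 Errfi1 starts and of Egfr are given because the first 2 genes were higher in HL than in NC, and Egfr was the receptor called in HL against H. Areg was also higher in H than in NC, and its difference between HL and H did not pass the test. The Errfi1 start shown is the one whose window held motifs. Each is the 250 bases before the start, 5′ to 3′ on the + strand, and capitals mark the motifs found, the cAMP response element TGACGTCA, the TATA box TATAAA and the GC box GGGCGG, on either strand. The deposited values rest on another build, so these coordinates are those of the reference alone.
Areg, chr5:91139349-91139598: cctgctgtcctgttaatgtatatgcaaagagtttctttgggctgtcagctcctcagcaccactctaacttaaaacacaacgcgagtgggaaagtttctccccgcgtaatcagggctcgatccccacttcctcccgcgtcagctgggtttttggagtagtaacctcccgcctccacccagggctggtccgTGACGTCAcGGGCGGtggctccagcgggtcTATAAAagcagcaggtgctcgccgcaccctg
Errfi1, chr4:150854820-150855069: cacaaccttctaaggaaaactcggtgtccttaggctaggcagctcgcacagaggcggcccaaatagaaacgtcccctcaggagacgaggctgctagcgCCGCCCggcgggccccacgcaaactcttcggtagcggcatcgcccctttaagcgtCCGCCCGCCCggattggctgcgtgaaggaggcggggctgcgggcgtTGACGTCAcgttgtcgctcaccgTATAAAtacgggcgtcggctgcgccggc
Egfr, chr11:16751953-16752202: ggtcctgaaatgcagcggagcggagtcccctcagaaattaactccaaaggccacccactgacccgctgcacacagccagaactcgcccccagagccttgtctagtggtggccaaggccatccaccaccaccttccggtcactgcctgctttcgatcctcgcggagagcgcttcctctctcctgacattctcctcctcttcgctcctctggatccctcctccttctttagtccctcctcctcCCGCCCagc
The cAMP response element began 61 bases before the Areg start and 51 bases before this Errfi1 start, and the TATA box 31 and 28 bases before them. Of all 32851 windows of this length in the reference, 1.55% held the cAMP response element, 12.4% the TATA box and 32.7% the GC box, and of the GC boxes of Errfi1 a pair overlaps. The AP-1 element TGANTCA (6.75% of windows) and the letters TGGAAA (18.6%), the core of the NFAT5 site, were in none of the 6 windows, and the windows of Erbb2 and of the other Errfi1 start held none of the 5 motifs. A match is a description of these letters and was not tied to any change in level.

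Of the 8 genes tested, epiregulin had the largest log2 fold change in both comparisons that involve the H group. Ereg (ENSMUSG00000029377.6) was at 26.7, 26.0 and 28.0 FPKM in the NC libraries, 98.0, 76.9 and 79.1 in H, and 19.3, 19.1 and 18.2 in HL. All 3 H libraries lay far above the others, H replicate 1 highest, and all 3 HL libraries lay below all 3 NC libraries. Compared with the NC group, Ereg rose in the H group by 1.64 on the log2 scale (SE 0.09, limma adjusted p = 7.48e-07), a 3.15-fold change in mean FPKM and a call. Compared with the H group it fell in the HL group, with a log2 fold change of -2.15 (SE 0.09, adjusted p = 8.23e-07), also a call. It ended below the NC group, with a log2 fold change of -0.51 (SE 0.09, adjusted p = 0.00142), which is not a call. With 1 annotated transcript, these values correspond to 1218 to 8609 fragments per library. The transcript overlaps Gm19610 on the opposite strand, listed at 3.53, 6.96 and 3.44 FPKM on average in NC, H and HL, and whether the counting used strand is not given in the sources used here.

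Amphiregulin rose with Ereg in high glucose, and its difference between HL and H did not pass the test. Areg (ENSMUSG00000029378.6) was at 13.1, 13.0 and 13.6 FPKM in NC, 22.9, 19.5 and 22.4 in H, and 18.1, 20.6 and 18.6 in HL. Both treated groups lay above NC in every library, and the H and HL libraries overlapped. Areg rose in H against NC (log2 fold change 0.70, SE 0.08, adjusted p = 6.50e-05) and was still above NC in HL (log2 fold change 0.52, adjusted p = 0.000697), neither of them a call. For HL against H the log2 fold change was -0.18, with a 95% confidence interval from -0.36 to 0.01 (adjusted p = 0.0998), and it passed after rescaling to TPM (adjusted p = 0.0184) and without H replicate 2 (adjusted p = 0.0169). The ratio of Ereg to Areg within a library was 2.0 to 2.07 for NC, 3.54 to 4.27 for H and 0.927 to 1.07 for HL.

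Both genes lie in 1 cluster of ligand genes on chromosome 5, in the order Epgn, Ereg, Areg and Btc in RefSeq (GRCm38.p6). Btc (betacellulin, a ligand of EGFR and ERBB4) was at 1.54 ± 0.207 FPKM in NC, 2.62 ± 0.177 in H and 2.50 ± 0.122 in HL. Like Areg it rose in H (log2 fold change 0.74, adjusted p = 0.00134), with -0.06 for HL against H (adjusted p = 0.728). Epgn (epigen, a weak EGFR ligand) was below the filter, at 0.406, 0.349 and 0.445 FPKM in NC, 0.148, 0.0699 and 0.146 in H, and 0.0617, 0 and 0 in HL. In the fit without the filter it was lower in H than in NC (log2 fold change -1.19, adjusted p = 0.0165). It was also lower in HL than in NC (-2.09, adjusted p = 0.00164), and both values are past the thresholds of a call. For HL against H the value was -0.89 (adjusted p = 0.0718). At such low levels the size of these values depends on the added 0.1 FPKM. The ratio of mean FPKM of Epgn was 0.303 in H against NC and 0.0513 in HL against NC. Egf, the founding ligand of the family, had a log2 fold change of 0.30 in H against NC (adjusted p = 0.350). Whether these genes differ from each other in their change was not tested.

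Hbegf, the most abundant of the ligands in NC, did not pass the test in high glucose and fell with liraglutide. Hbegf (ENSMUSG00000024486.7) was at 35.0, 34.3 and 35.2 FPKM in NC, 38.3, 33.5 and 38.9 in H, and 32.0, 29.8 and 30.9 in HL. The H libraries lay on both sides of the NC libraries, while every HL library was below every other library. The log2 fold change of H against NC was 0.08, with an interval from -0.07 to 0.23 (adjusted p = 0.316). It was 0.27 after rescaling to TPM (adjusted p = 0.0115) and 0.15 without H replicate 2 (adjusted p = 0.0276). Hbegf fell in HL against H (log2 fold change -0.25, SE 0.07, adjusted p = 0.0119) and had -0.17 against NC (adjusted p = 0.0573, and 0.0103 without H replicate 2, 0.0434 without H replicate 1 and 0.00773 in a fit of the HL and NC libraries alone).

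Nrg1, a ligand of ERBB3 with many isoforms, rose in high glucose and fell with liraglutide. Nrg1 (ENSMUSG00000062991.10) was at 10.0, 9.43 and 8.62 FPKM in NC, 17.3, 16.9 and 15.1 in H, and 10.4, 8.88 and 11.7 in HL. The H libraries stood above all others, and the NC and HL libraries overlapped. Nrg1 rose in H (log2 fold change 0.81, SE 0.11, adjusted p = 0.000192) and fell in HL against H (log2 fold change -0.67, SE 0.11, adjusted p = 0.0010), and HL against NC gave 0.13, with an interval from -0.11 to 0.38 (adjusted p = 0.348). Tgfa (ENSMUSG00000029999.15) was near the limit of detection, at 0.10, 0.167 and 0.0778 FPKM in NC, 0.238, 0.126 and 0.235 in H, and 0.216, 0.142 and 0.0945 in HL. These amount to about 6.97 to 23.1 fragments per library on its longest transcript, and the 3 groups overlapped. In the fit without the filter the log2 fold change of H against NC was 0.48, with an interval from -0.24 to 1.19 (adjusted p = 0.319).

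**Figure D1:**
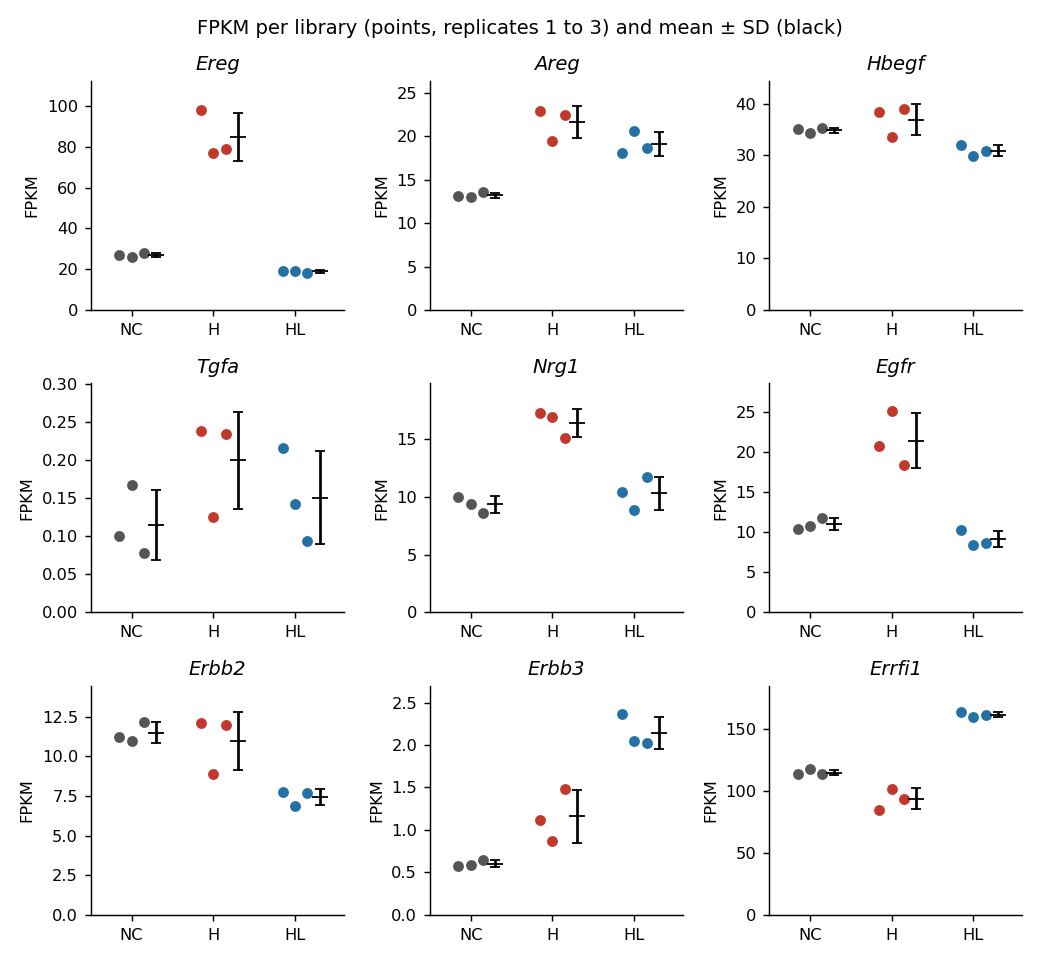
FPKM of each of the 9 genes (y axis, starting at 0 and scaled per gene) in the NC, H and HL groups (x axis), 1 point per library, with the mean and SD of the 3 libraries in black. Ereg, Nrg1 and Egfr peak in H, Erbb3 and Errfi1 are highest in HL, and Erbb2 is lowest in HL.

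Egfr, the receptor shared by most of these ligands, was highest in high glucose. Egfr (ENSMUSG00000020122.17) was at 10.4, 10.8 and 11.8 FPKM in NC, 20.8, 25.1 and 18.4 in H, and 10.3, 8.39 and 8.72 in HL. The H libraries lay above all others, with H replicate 2 highest, and all 3 HL libraries lay below all 3 NC libraries by a small margin. Egfr rose in H with a log2 fold change of 0.95 (SE 0.12, adjusted p = 0.000145), just short of a call, which it became after rescaling to TPM (1.14) and without H replicate 3 (1.05). It fell in HL against H with a log2 fold change of -1.21 (SE 0.12, adjusted p = 6.84e-05), a call. For HL against NC the value was -0.27, with an interval from -0.54 to 0.01 (adjusted p = 0.104), and it passed without H replicate 2 (adjusted p = 0.0440) and in a fit of these groups alone (adjusted p = 0.0409).

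Erbb2, the partner receptor, did not pass the test in high glucose and was lower with liraglutide. Erbb2 (ENSMUSG00000062312.6) was at 11.2, 11.0 and 12.2 FPKM in NC, 12.1, 8.92 and 12.0 in H, and 7.76, 6.88 and 7.68 in HL. Of the H libraries only replicate 2 lay below the NC libraries, and every HL library lay below every other library. The log2 fold change of H against NC was -0.07, with an interval from -0.34 to 0.21 (adjusted p = 0.645), and it turned to 0.12 after rescaling to TPM and to 0.08 without H replicate 2. Erbb2 fell in HL against H (log2 fold change -0.55, SE 0.12, adjusted p = 0.00514) and was below NC (log2 fold change -0.62, SE 0.12, adjusted p = 0.00271). Its exons overlap those of Mien1 on the opposite strand, an abundant gene at 61.3, 78.5 and 63.0 FPKM on average in NC, H and HL.

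Erbb3, the neuregulin receptor, was the scarcest of the 3 receptors and the one that was highest with liraglutide. Erbb3 (ENSMUSG00000018166.9) was at 0.578, 0.587 and 0.650 FPKM in NC, 1.12, 0.871 and 1.48 in H, and 2.36, 2.05 and 2.02 in HL, or 70.4 to 294 fragments. The 3 groups did not overlap, with NC lowest and HL highest. Erbb3 rose in H against NC (log2 fold change 0.81, SE 0.22, adjusted p = 0.00947) and again in HL against H (log2 fold change 0.86, SE 0.22, adjusted p = 0.00955), and in HL against NC it was called, with 1.67 (SE 0.22, adjusted p = 0.000278). At a pseudocount of 1 that value is 0.97, short of a call. The NC libraries all lay below the 1 FPKM of the filter, which Erbb3 reached through H and HL. The ERBB3 and ERBB4 ligand Nrg2 was at 0 in all NC and HL libraries and at most 0.0499 FPKM in H, and Erbb4 was listed at 0 in all 9 libraries.

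The feedback inhibitor Errfi1 was the most abundant of the 9 genes by its mean in each group, and its log2 fold changes had the opposite sign to those of Ereg and Egfr. Errfi1 (ENSMUSG00000028967.11) was at 114, 118 and 114 FPKM in NC, 85.1, 102 and 94.1 in H, and 164, 159.8 and 162 in HL. The groups did not overlap, with H lowest and HL highest. Errfi1 fell in H against NC (log2 fold change -0.30, SE 0.06, adjusted p = 0.00274), which did not pass after rescaling to TPM (-0.11, adjusted p = 0.229). It rose in HL against H (log2 fold change 0.79, SE 0.06, adjusted p = 2.07e-05) and stood above NC (log2 fold change 0.49, SE 0.06, adjusted p = 0.000306). The ratio of Errfi1 to Egfr within a library was 9.67 to 11.0 for NC, 4.07 to 5.13 for H and 15.9 to 19.0 for HL.

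Across the group, H against NC gave 1 call, Ereg, of the 8 genes tested, where 10.3% of all tested genes were called higher, 5.75% lower and 16.0% in either direction. By adjusted p alone 5 rose (27.1% of all tested genes) and 1 fell (33.0%), and the libraries did not overlap for 5 that were higher (29.7% of all tested genes) and 1 that was lower (35.7%). In HL against H, Ereg and Egfr were called lower (5.83% of all tested genes) and none higher (3.55%, and 9.38% in either direction). By adjusted p alone 5 fell (21.7%) and 2 rose (26.7%), and the libraries did not overlap for 5 that were lower (24.9%) and 2 that were higher (30.4%). In HL against NC, Erbb3 was called higher (6.30%) and none lower (2.41%, and 8.72% in either direction). Erbb3 was tested only because its H and HL libraries reached the filter. By adjusted p alone Areg, Erbb3 and Errfi1 rose (21.6%) and Ereg and Erbb2 fell (27.2%), and the libraries did not overlap for 3 that were higher (29.5%) and 4 that were lower (36.3%). The median log2 fold change of the 8 genes was 0.75, -0.40 and -0.02 in these comparisons, and that of all tested genes -0.04, 0.04 and -0.04. The first 2 comparisons share the H libraries, so opposite signs in them are not independent. Rescaling to TPM, which moves the median of all tested genes in H against NC to 0.17, gave 4 calls in that comparison, with Egfr, Nrg1 (1.0) and Erbb3 (1.01) beside Ereg.

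**Figure D2:**
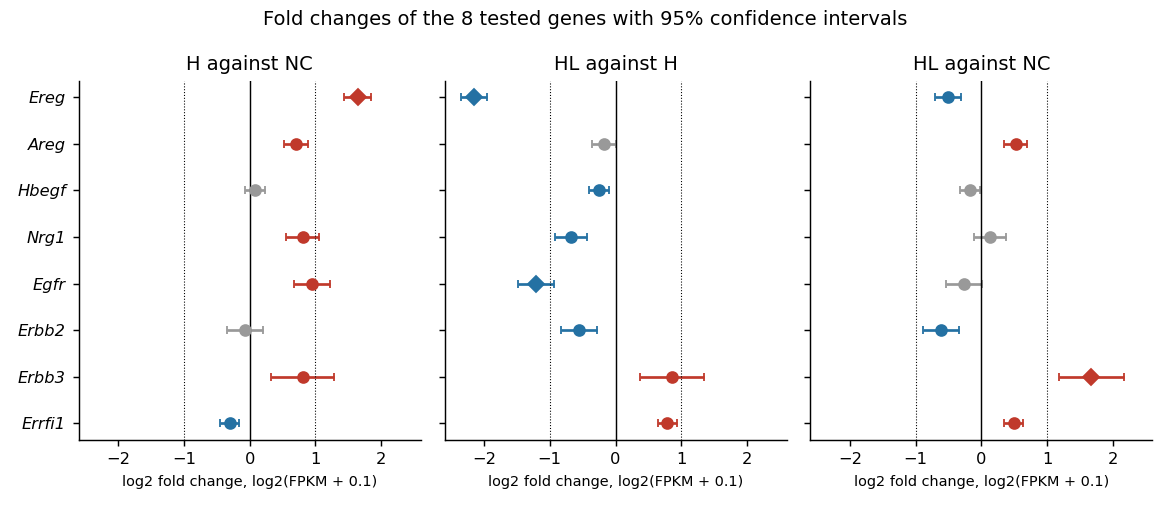
Log2 fold change on log2(FPKM + 0.1) (x axis) of the 8 tested genes (y axis) in 3 comparisons, with 95% confidence intervals of limma (diamonds, called; red or blue circles, adjusted p under 0.05 only; grey, neither; dotted lines, a log2 fold change of 1 in either direction). Ereg has the largest rise in H, 1.64, and the largest fall in HL against H, -2.15, and Erbb3 lies above 0 in all 3 panels.

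The makeup of the ligand transcripts shifted with the treatments. In NC, Hbegf held 41.1% to 41.4% of the summed FPKM of the 5 ligands, ahead of Ereg with 31.4% to 32.8%. In H, Ereg held 50.8% to 55.4%, and the summed level was 147 to 177 FPKM against 82.9 to 85.5 in NC and 78.6 to 80.0 in HL. In HL, Hbegf led again with 37.9% to 40.0%, and Areg held 22.6% to 26.3% beside 22.9% to 24.4% for Ereg. Of the summed FPKM of the 3 receptors, Egfr held 46.9% to 48.1% for NC, 57.6% to 71.9% for H and 47.3% to 50.5% for HL, and Erbb3 2.61% to 2.64%, 2.50% to 4.65% and 11.0% to 11.9%. The ratio of Egfr to Erbb2 was 0.929 to 0.978 for NC, 1.52 to 2.81 for H and 1.14 to 1.33 for HL. By level, the ranges of Erbb2 and Egfr overlapped in NC, those of Errfi1 and Ereg and of Areg and Egfr in H, and those of Areg and Ereg and of Nrg1 and Egfr in HL, while all other neighbours in the order were apart.

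**Figure D3:**
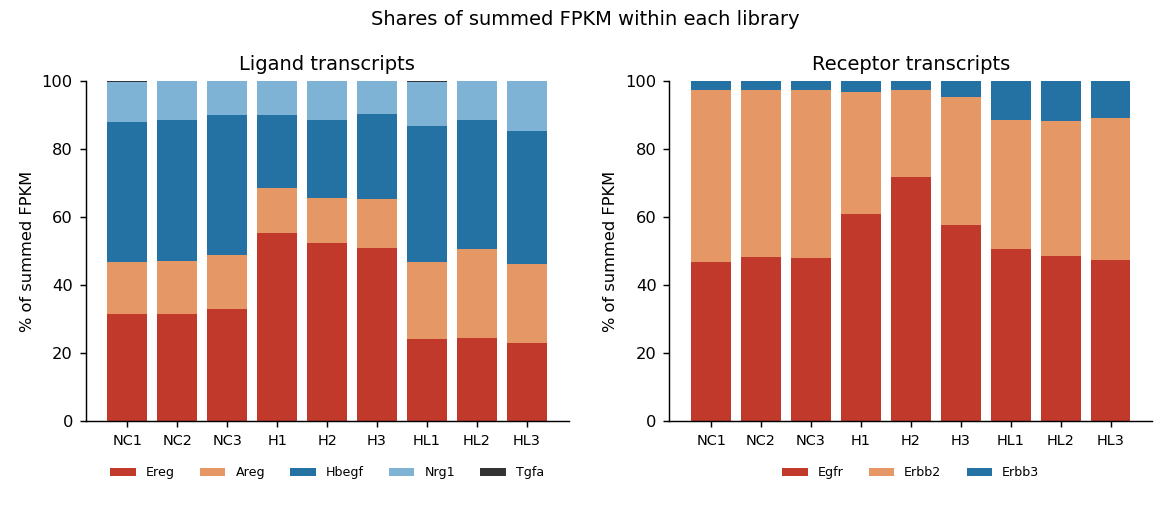
Share of summed FPKM (y axis, percent) held by each of the 5 ligands (left) and each of the 3 receptors (right) in the 9 libraries (x axis). Ereg holds more than any other ligand in the 3 H libraries only, and Erbb3 holds 11.0% to 11.9% of the receptor sum in HL.

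Over the 9 libraries, the 5 genes whose log2 values followed Ereg most closely were Srpx2 (a secreted sushi-repeat protein, Pearson's r = 0.9979), Gm48754 (0.9975), Crem (a transcription factor of the cAMP response, 0.9970), Gm4027 (0.9969) and Gm45716 (0.9967). Srpx2 was at 30.4, 66.6 and 24.6 FPKM on average in NC, H and HL, and Crem at 26.3, 63.0 and 19.2, both with the HL mean below the NC mean. The points fall into 3 groups, so r mostly reflects the group means, and 393 of 13673 other tested genes had an r over 0.95.

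Among the other genes of the pathway, those that release the ligands differed in direction. Of 13 tested sheddases and their regulators, 1 was called higher (Timp3) and 1 lower (Adam12) in H against NC, beside 10.3% and 5.75% of all tested genes, and by adjusted p alone 3 rose and 7 fell, beside 27.1% and 33.0%. Adam17, the main sheddase of AREG, EREG, HBEGF and TGFA, had log2 fold changes of -0.15 in H against NC (adjusted p = 0.0430) and 0.28 in HL against H (adjusted p = 0.00264). Timp3, the inhibitor of ADAM17, rose in H, with 23.9 ± 0.340 FPKM (SD, n = 3) for NC, 69.5 ± 6.46 for H and 45.7 ± 1.20 for HL. Adam12, a sheddase of HBEGF, fell in H, with 7.45 ± 0.217 FPKM for NC, 1.58 ± 0.671 for H and 1.85 ± 0.253 for HL. Adam8, another membrane protease, was at 8.99 ± 0.455, 9.09 ± 1.71 and 20.8 ± 0.456 FPKM, a call in HL against H (log2 fold change 1.20, adjusted p = 6.67e-05).

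No gene of the 21 adaptors and ERK cascade genes tested or of the 24 tested genes of receptor turnover and inhibition was called in H against NC, HL against H or HL against NC. Of all tested genes, 16.0%, 9.38% and 8.72% were called in either direction in these comparisons. By adjusted p alone, H against NC had 1 of the 21 higher and 8 lower (27.1% and 33.0% of all tested genes), and HL against H had 6 higher and 2 lower (26.7% and 21.7%). The one that rose was Grb2, the adaptor that links EGFR to RAS, at 71.1 ± 3.70 FPKM in NC, 97.7 ± 5.92 in H and 69.9 ± 8.40 in HL. Of the genes of receptor turnover, 6 were higher and 7 lower by adjusted p in H against NC, while in HL against H it was 1 and 6, with the same shares of all tested genes beside them. Sh3kbp1 (CIN85, a scaffold of receptor uptake) was at 82.8 ± 2.08, 92.8 ± 5.45 and 67.2 ± 3.03 FPKM, and Hgs (a sorting protein of endosomes) at 37.1 ± 0.990, 60.3 ± 11.0 and 52.2 ± 1.64.

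Of 24 tested transcripts known to follow ERK activity, 6 were called higher and 1 lower in H against NC, beside 10.3% and 5.75% of all tested genes, and by adjusted p alone 14 rose and 1 fell, beside 27.1% and 33.0%. Their median log2 fold change was 0.48, in a list chosen with earlier results of these data known, so these counts are no independent test. The largest log2 fold change was that of Fos, an AP-1 subunit, with 3.46, followed by the ERK phosphatases Dusp4 and Dusp6 with 2.29 and 1.45. The 1 called lower was the cyclin gene Ccnd1 (log2 fold change -1.23, limma adjusted p = 1.19e-06). Dusp4 was at 27.7 ± 0.515 FPKM in NC, 137 ± 19.7 in H and 97.9 ± 1.75 in HL, and Dusp6 at 21.9 ± 1.24, 61.6 ± 16.6 and 41.3 ± 2.95. In HL against H, 2 were called lower and 2 higher (5.83% and 3.55% of all tested genes), and by adjusted p alone 9 fell and 6 rose (21.7% and 26.7%), with a median of -0.13. The 2 called lower were Ier3, a stress-induced survival factor (447 ± 121 FPKM in H, 179 ± 3.14 in HL), and Il1rl1, the receptor of interleukin 33 (5.09 ± 0.752 and 1.93 ± 0.290). The 2 called higher were Spry1, a Sprouty inhibitor of the cascade (log2 fold change 1.01, adjusted p = 0.00497), and Ccnd1, the G1 cyclin D1. Ccnd1 was at 131 ± 1.89 FPKM in NC, 56.1 ± 6.27 in H and 135 ± 3.14 in HL. Spry1 was low, at 0.992 ± 0.124 FPKM in NC, 0.790 ± 0.193 in H and 1.67 ± 0.153 in HL, and would not have reached the filter without its HL libraries. Against NC, HL had 3 called higher and none lower (6.30% and 2.41% of all tested genes), Fos, Dusp4 and Egr1, an immediate early transcription factor. By adjusted p alone 12 were higher and 2 lower (21.6% and 27.2%).

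**Figure D4:**
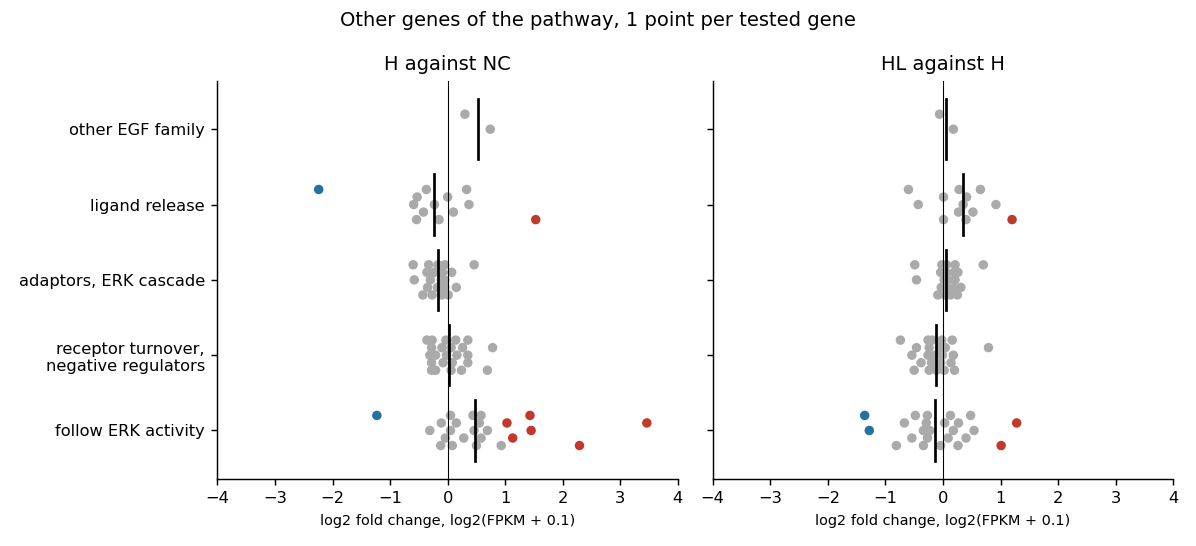
Log2 fold change on log2(FPKM + 0.1) (x axis) of the tested genes of 5 further lists of the pathway (y axis), 1 point per gene, in H against NC (left) and HL against H (right), with called genes in red (higher) or blue (lower), others in grey and the list's median as a black line. In H against NC the transcripts that follow ERK activity have a median of 0.48, and the adaptors and ERK cascade genes one of -0.17. The lists were chosen with earlier results of these data known.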

How the data were processed

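The deposited values are 1 FPKM per gene and library. According to the methods, reads were trimmed with fastp, aligned with HISAT2 (version 2.1.0) and quantified with StringTie (version 1.3.3b). The sources name mouse mm39 and, in the paper's methods, a human genome, and the deposited table's name points to salmon as the quantifier, so which tool made these values is not settled. The identifiers are those of mouse Ensembl. Symbols were joined by gene ID without version, for 51482 of 54307 genes. FPKM are not counts, so no count model was run. For depth, low FPKM of genes with 1 annotated transcript were read as whole fragments (2599 to 3120 values per library, 99.5% to 99.7% of them within 0.1 of a whole number of fragments, with 252 to 290 bases taken off each length), and the precision of low values is limited by these fragments.

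On the scale log2(FPKM + 0.1), libraries were compared by limma's moderated test (limma 3.58.1 with statmod 1.5.0 in R 4.3.3, trend and robust options) in 1 fit of all 9 libraries, with Benjamini-Hochberg adjustment over 13674 genes within each comparison. The fit was tested on simulated data. The genes described and the lists were chosen with earlier results of these data known. The named genes are the 9 genes, up to 3 called genes with the largest change in each further list or else the 2 with the highest level, and the 5 genes most like the gene with the largest change in H; genes outside this rule (Epgn, Nrg2, Erbb4, Adam17, Spry1, and the markers Des, Pax7, Tyrobp, Ptprc, Adgre1 and Foxd3) were named after their values were seen. The values of 1 gene that the rule names are not reported here. The alternatives tried changed the pseudocount (to 1 or to 0.01), dropped the filter or required mean FPKM to reach 5, and used TPM, median centring, fits of only the groups compared, no robust option, a replicate block or left out each library in turn. The marker lists are given as summed levels. Figures were made with Python 3.11.15, pandas 2.3.3 and matplotlib 3.10.9.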

Additional observations from a re-analysis of the deposited data

How the results depend on the processing

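Of the counts recomputed under the alternatives, 95 stayed within 1.5 times and 13 did not, and of the fold changes of the 8 tested genes, 420 kept their sign and their side of the call thresholds, 5 became calls, 1 was lost and 2 changed sign. Rescaling to TPM gave 4 of the 8 genes called in H against NC and turned Erbb2 in that comparison to 0.12, with Nrg1 at 1.0, Egfr at 1.14 and Erbb3 at 1.01, and leaving out 1 library moved Erbb2 between -0.14 (without H replicate 1) and 0.08 (without H replicate 2). The cause was not tested. In HL against NC none of the 8 was called at a pseudocount of 1, where Erbb3 was at 0.97, or when mean FPKM had to reach 5, which leaves Erbb3 out (0 in both settings). Leaving out 1 library gave 1 to 2 called genes of the 8 in H against NC (Egfr also, without H replicate 3), 2 to 3 in HL against H (Erbb3 also, 1.04 without H replicate 3) and 1 in HL against NC, and over all tested genes 1719 to 2167, 835 to 1274 and 1095 to 1152 calls, the lowest in HL against H without H replicate 1. Over all tested genes, calls were 2188, 1283 and 1192 of 13674, against 3760, 2196 and 1885 of 32012 without the filter. They were 1065, 525 and 456 of 9849 with the mean FPKM required to reach 5. At a pseudocount of 1 they were 821 (HL against H) and 644 (HL against NC). The share of calls that were higher in H against NC was 64.1%, 78.6% after rescaling to TPM and 72.1% without the filter. It was 48.5%, with 517 calls higher and 548 lower, when mean FPKM had to reach 5. The deviations of libraries with the same number from their group means correlated between -0.0366 and 0.0911. Such values cannot tell whether these libraries shared a culture or a day, and the labels do not say. With the replicate block 1, 2 and 1 of the 8 genes were called in H against NC, HL against H and HL against NC. Tgfa rests on about 6.97 to 23.1 fragments per library on its longest transcript.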
